A study of Homo sapiens with 6 samples.

Results

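Collagen genes are the protein-coding genes named COL, a number, A and a number, each of which encodes 1 alpha chain of a collagen. By that naming rule, 42 of the 18969 protein-coding genes that RefSeq places on chromosomes 1 to 22 were collagen genes. AcNEIL1 peaks were counted over each gene body together with 5 kb on either side, called the gene window here. The genes were chosen by name, and the family itself was selected on its peaks per kb and broad runs in these same tables, so its values are given as a description with the spread over replicates, and no test was made.

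The study immunoprecipitated acetylated NEIL1 (AcNEIL1) from HCT116, an established human colorectal adenocarcinoma cell line. NEIL1 cuts oxidized bases out of DNA and so begins base excision repair. The AcNEIL1 ChIP group held 3 libraries made with a custom rabbit antibody from untreated, exponentially growing cells that had been sub-cultured the day before formaldehyde crosslinking. The input group held 3 libraries of the same untreated cells without antibody, and each served as the control of the ChIP library of its number when the authors called peaks.

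After filtering by the authors' peak caller, the ChIP libraries held 28814429 to 35222701 tags and the inputs 32877739 to 37772127. Replicate 1 had 39655 peaks on chromosomes 1 to 22 with a median width of 401 bp, replicate 2 had 59750 of 479 bp and replicate 3 had 49482 of 384 bp. Replicate 2 therefore had the longest list and the widest peaks. Separate cultures are not named for the replicates, so a spread over them may be technical. The series is of 1 cell line, and no RNA was measured, so neither the markers of the line nor the expression of any collagen gene could be checked.

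Collagen chains wind 3 at a time into a triple helix, which their repeated glycine-X-Y sequence makes possible. Fibrillar collagens build the fibrils of bone, cartilage, skin and tendon. Network collagens form sheets such as the basement membrane under an epithelium, and anchoring fibrils of type VII collagen fasten that membrane to the tissue beneath. FACIT collagens sit on the surface of fibrils, beaded-filament collagens form microfibrils, and transmembrane collagens stand in the cell membrane.

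AcNEIL1 peaks were found in at least 1 replicate in 25 of the 42 collagen windows, at mean densities from 0.00152 peaks per kb in COL24A1 to 0.501 in COL7A1. A peak lay in the window in all 3 replicates in 22 of 42 collagen genes (52.4%), beside 29.4% of all protein-coding genes. No peak was found in any replicate in 17 of 42 (40.5%), beside 47.5% of all protein-coding genes. The remaining 3 had peaks in 1 replicate only: COL4A4 had 4 in replicate 3, COL6A3 had 1 in replicate 2 and COL24A1 had 2 in replicate 2. With the 5000 strongest peaks of each replicate alone, 8 collagen genes had a peak in all 3. The share of all protein-coding genes was not counted for those shorter lists, so the 29.4% does not apply to this 8.

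Pooled over the family, collagen windows held 290, 512 and 365 peaks in replicates 1, 2 and 3. That is 0.0426, 0.0752 and 0.0536 peaks per kb, against 0.0207, 0.0314 and 0.0262 peaks per kb over the windows of the other protein-coding genes. The means were 0.0571 ± 0.0166 for collagen genes and 0.0261 ± 0.00533 for the others (SD, n = 3 each), and the ratio within a replicate was 2.17 ± 0.199 (SD, n = 3). Peaks covered 2.45, 6.27 and 3.15% of collagen body bases, against 1.04, 2.25 and 1.30% of the other genes' body bases. Both measures were higher in collagen genes in each of the 3 replicates.

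The peaks were concentrated in a few members. The 12 collagen genes with the most peaks per kb held 192 of 290, 273 of 512 and 248 of 365 collagen peaks, or 66.2, 53.3 and 67.9%. Among all protein-coding genes ranked by mean peaks per kb, the first 1000 included 9 collagen genes: COL7A1, COL16A1, COL6A1, COL11A2, COL8A2, COL2A1, COL9A2, COL20A1 and COL1A1. Ranked by mean share of body bases in peaks, the first 1000 included 7: COL7A1, COL11A2, COL20A1, COL16A1, COL2A1, COL9A2 and COL9A3. By that measure COL8A2, COL6A1 and COL1A1 ranked 1101, 1504 and 1907. Single peaks in collagen windows were of ordinary fold enrichment. Their median fold enrichment over the local background, the authors' own value per peak, was 3.37, 3.31 and 3.58, against 3.42, 3.40 and 3.61 for peaks elsewhere. Their median local background was higher in each replicate, at 5.74, 5.80 and 5.00 tags, against 4.94, 5.34 and 4.48 elsewhere. Median pileup was higher too, at 22, 22 and 21.0 tags, against 20, 21 and 19.1. The part of this background in the peak counts was not tested.

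**Figure D1:**
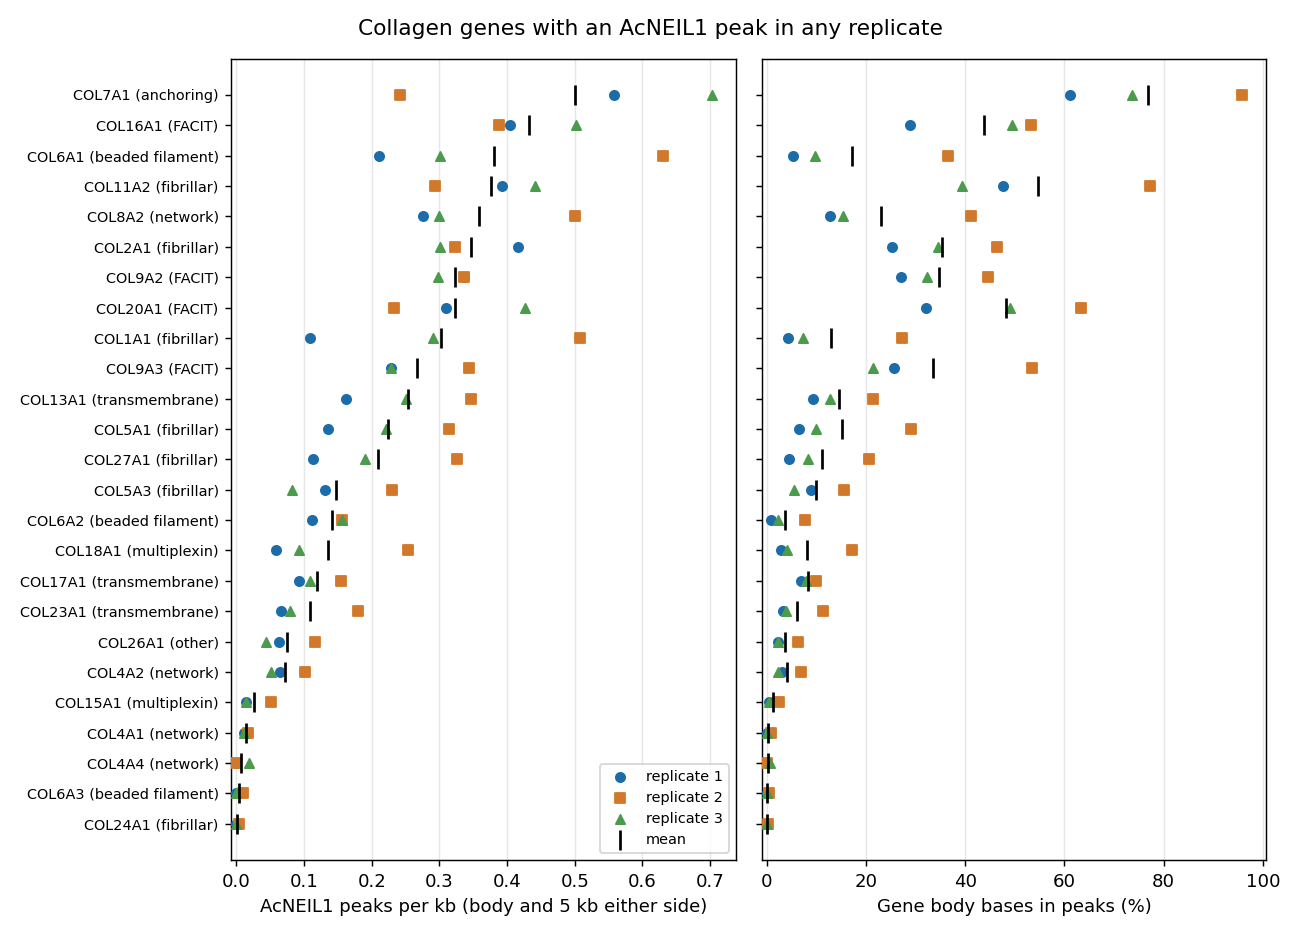
AcNEIL1 peaks per kb of gene window (left) and percent of gene body bases in peaks (right) for the 25 collagen genes with a peak in any replicate, with 1 point per replicate and a bar at the mean. COL7A1 is highest on both scales, and replicate 2 covers the most bases in most genes while it counts the fewest peaks in COL7A1.

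A second pattern was the broad run, a chain of peaks of 1 replicate with gaps of up to 1 kb that spans 3 kb or more. Runs inside the gene body overlapped between all 3 replicates in 11 of 42 collagen genes (26.2%), beside 3.99% of all protein-coding genes. These were COL7A1, COL11A2, COL20A1, COL16A1, COL2A1, COL9A3, COL9A2, COL23A1, COL5A1, COL8A2 and COL13A1. Taken 1 replicate at a time, a run lay in 13, 20 and 12 collagen bodies in replicates 1, 2 and 3, beside 5.60, 12.7 and 7.48% of all protein-coding genes. The shared stretch of a gene's runs had a median of 3.94 kb in collagen genes and 3.90 kb in other genes with one. Its longest total per gene was 23.3 kb among these 11 collagen genes and 106.5 kb among the 745 others, so the longest total was not in a collagen gene. A total over 9 kb was found in 4 collagen genes, or 9.52% of the family. It was found in 91 of the other protein-coding genes, or 0.481% of them. The count of 11 depends on the cutoffs: it was 3 with peaks of a −log10 q of 5 or more, 5 with gaps of up to 500 bp and 5 with runs of 5 kb or more. The share of all protein-coding genes was not counted at these cutoffs. Whether the difference from other genes changed with them is therefore not known.

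COL7A1 encodes the chain of type VII collagen, the anchoring fibril of the skin and other epithelia, and had the most peaks per kb in the family. The gene lies on the minus strand at chr3:48564073-48595329 (hg38), a body of 31.3 kb. The count over its window was 23 peaks in replicate 1, 10 in replicate 2 and 29 in replicate 3, or 0.501 ± 0.235 peaks per kb on average (SD, n = 3). Replicate 2 had the fewest and the widest peaks: its median peak there spanned 850 bp and its longest 16506 bp, while the longest spanned 3517 and 5700 bp in replicates 1 and 3.

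Measured by bases, replicate 2 had the highest coverage of COL7A1 rather than the lowest. Peaks covered 61.1% of the body in replicate 1, 95.9% in replicate 2 and 73.6% in replicate 3, on average 76.9 ± 17.6% (SD, n = 3). The gene ranked 76 of 18969 by either measure. Runs took up 23.3, 31.3 and 29.3 kb of the body, and 2 stretches were shared by all 3 replicates. One was 13.5 kb long, from 9.0 to 52.2% of the way along the body from the start, and the other 9.76 kb, from 59.1 to 90.3%. Together they made up 74.4% of the body.

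The strongest COL7A1 peak had a fold of 7.18, 8.39 and 7.10 in replicates 1, 2 and 3, also the highest of the family in each of the 3. Its summit lay 25.8, 24.9 and 27.6 kb from the start, towards the 3′ end of the gene. The local background at COL7A1 peaks had medians of 6.51, 6.10 and 6.0 tags, against 4.94, 5.34 and 4.48 tags for peaks outside collagen windows. The part of this higher background in the result was not tested.

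COL7A1 stood out from its surroundings. The 500 kb on either side of its window held a mean of 0.0347 peaks per kb, and the window held 14.4 times as many. The next gene downstream of its 3′ end, UCN2, a urocortin peptide hormone gene, had 2, 2 and 3 peaks over its body in replicates 1, 2 and 3. PFKFB4, a glycolysis regulator further on, had 6, 10 and 10. All of UCN2 and the near end of PFKFB4 lie in the COL7A1 window, so peaks there were also counted for COL7A1. In replicates 2 and 3 a run over COL7A1 went on through UCN2 into PFKFB4, as far as chr3:48559140 and chr3:48558778. UQCRC1, a respiratory chain gene upstream of the COL7A1 start, had none, so the peaks ended near the start of COL7A1.

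A microRNA gene, MIR711, lies inside the COL7A1 body on the same strand, at chr3:48578902-48578977, in the gap between the 2 shared runs. A peak covered it in replicates 2 and 3 but not in replicate 1. Its mature product is shown because it is the only microRNA inside a collagen gene that a peak covered in more than 1 replicate, chosen after its values were seen, and the capitals mark its seed, bases 2 to 8.
hsa-miR-711, chr3:48578914-48578935, minus strand: gGGACCCAgggagagacguaag

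**Figure D2:**
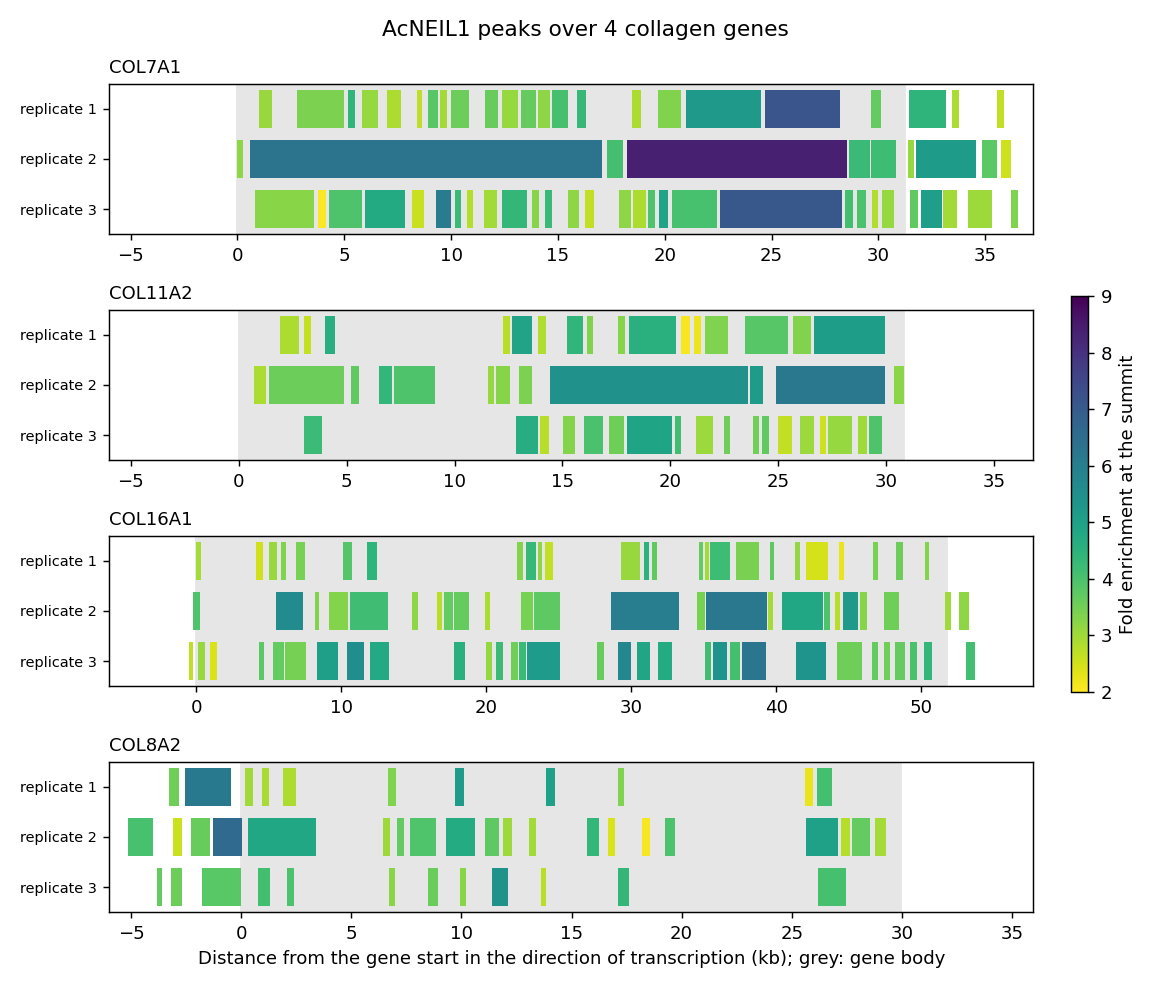
AcNEIL1 peaks of each replicate over COL7A1, COL11A2, COL16A1 and COL8A2, by distance from the gene start in kb, with the gene body in grey and each peak coloured by its fold enrichment at the summit. Peaks fill most of COL7A1 and the last part of COL11A2, and are spread along COL16A1 and COL8A2, with peaks on both sides of the COL8A2 start in all 3 replicates.

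Fibrillar collagens comprised 11 genes, 6 with a peak in all 3 replicates (54.5%) and 4 without any (36.4%), and 3 had a shared run. The shares of all protein-coding genes were 29.4, 47.5 and 3.99%, here and for the classes that follow. COL11A2, a cartilage fibril chain at chr6:33162694-33193519 on the minus strand, had the highest density of the class. Its window held 16, 12 and 18 peaks, a mean of 0.376 ± 0.0748 peaks per kb, and peaks covered 47.6, 77.2 and 39.4% of the body (SD, n = 3). Its shared runs were 3.56, 5.21 and 5.99 kb long and lay between 41.7 and 96.8% of the body, in the 3′ part of the gene. RXRB, a nuclear receptor gene whose body begins just upstream of the COL11A2 start, had no peak, and the window held 12.95 times the density of its flanks.

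COL2A1 encodes the main fibril chain of cartilage, at chr12:47972967-48006212. It had 18, 14 and 13 peaks, a mean of 0.347 ± 0.0612 peaks per kb, and peaks covered 25.2, 46.4 and 34.4% of the body (SD, n = 3). Its shared runs were 4.36 and 3.46 kb long, and both lay towards the low-coordinate end of the body. COL2A1 and COL11A2 had the 2 highest densities of the class.

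COL1A1 encodes the main chain of type I collagen, the fibril of bone, skin and tendon, at chr17:50184101-50201631. Its window held 3, 14 and 8 peaks, a mean of 0.303 ± 0.200 peaks per kb (SD, n = 3). The count in replicate 2 was thus over 4 times that in replicate 1. Many of these peaks lay outside the body, in the 5 kb on either side, and so did the strongest peak of each replicate. Peaks covered 4.32, 27.4 and 7.37% of the body in replicates 1, 2 and 3. COL1A1 had runs in replicate 2 only, the longest with 3.515 kb inside the body. Its flanks held 0.220, 0.203 and 0.245 peaks per kb, against which the window was lower in replicate 1, at 0.109, and higher in replicates 2 and 3, at 0.509 and 0.291. Without replicate 2 the window averaged 0.200 and the flanks 0.233 peaks per kb. COL1A2, the other chain of type I collagen, had no peak in any replicate.

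COL5A1, which encodes a chain that regulates fibril width, lies at chr9:134641803-134844843 on the plus strand. Its window held 29, 67 and 47 peaks, a mean of 0.224 ± 0.0892 peaks per kb (SD, n = 3). Runs that began upstream of the body in each replicate overlapped over its first 1.12 kb, and another shared run of 2.53 kb lay 86.2 to 87.5% of the way along it. The flanks were as dense as the window, at 0.209 peaks per kb.

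Among the other fibrillar genes, COL27A1 of cartilage had 19, 55 and 32 peaks, a mean of 0.210 ± 0.108 peaks per kb (SD, n = 3), with runs in replicate 2 only. COL5A3 had 8, 14 and 5 peaks and no shared run, although its body held a run of 4.41 kb in replicate 1 and runs of 3.14 and 3.13 kb in replicate 2. COL3A1, the fibril chain of vessels and skin, COL5A2 and COL11A1 joined COL1A2 among the genes without a peak in any replicate.

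Among 7 network collagen genes, a peak was found in all 3 replicates in 3 (42.9%) and in no replicate in 3 (42.9%). The latter share was near the 47.5% of all protein-coding genes, and the former stood beside 29.4%. A shared run was found in 1 of the 7, beside 3.99%. COL8A2, a chain of the sheet under the corneal endothelium, lies at chr1:36095239-36125222 on the minus strand. Its window held 11, 20 and 12 peaks, a mean of 0.358 ± 0.123 peaks per kb, and its strongest peak had a fold of 6.16, 6.62 and 5.45 (SD, n = 3). The 3 replicates shared a run that covered the first 2.38 kb of the body. Within 5 kb of the start lay 5 of the 11 peaks of replicate 1, 5 of the 20 of replicate 2 and 5 of the 12 of replicate 3, and the others lay further along the gene. The flanks held 0.0320 peaks per kb, and the window 11.2 times that.

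COL4A1 and COL4A2 encode the chains found in nearly all basement membranes, and lie head to head with 126 bp between their bodies. COL4A2 had 14, 22 and 11 peaks, a mean of 0.0726 ± 0.0263 peaks per kb (SD, n = 3). COL4A1 had 2, 3 and 2 peaks, a mean of 0.0139 ± 0.00343 peaks per kb, the lowest of the 22 genes with a peak in all 3. In replicates 1 and 3 both of its peaks, and in replicate 2 1 of 3, overlapped the COL4A2 body and were counted for both genes. In replicate 3 neither touched the COL4A1 body, so without the extension 21 collagen genes had a peak in all 3. The shared start of this pair, taken as the gap and 1 kb on either side, carried 1, 1 and 0 peaks. In replicate 3 a peak began 1.06 kb into COL4A2, just beyond that limit. Its fold of 4.69 was the highest of the COL4A2 window in that replicate. COL4A3 and COL4A4, the chains of the kidney filter, form a like pair 135 bp apart, and the shared start carried no peak in any replicate. COL4A3, COL8A1 and COL10A1, the network chain of growth-plate cartilage, had no peak.

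The fibrillar genes held 0.0532, 0.102 and 0.0704 peaks per kb in replicates 1, 2 and 3, against 0.0440, 0.0495 and 0.0513 for network and anchoring genes together. The means were 0.0751 ± 0.0247 for fibrillar genes and 0.0482 ± 0.00381 for network and anchoring genes, and the ratio was 1.55 ± 0.451 (SD, n = 3 each). The ratio was above 1 in all 3 replicates, at 1.21, 2.06 and 1.37. Much of the second group's level came from COL7A1: without that gene the network genes alone held 0.0305 ± 0.00994 peaks per kb, and the ratio was 2.24, 2.43 and 2.74. With peaks restricted to a −log10 q of 5 or more the ratio including COL7A1 was 0.960 ± 0.497, and among the 5000 strongest peaks of each replicate it was 0.674 ± 0.270 (SD, n = 3). At a −log10 q of 5 or more the ratio was 0.625, 1.53 and 0.725 in replicates 1, 2 and 3, so the replicates differed in direction. Among the 5000 strongest peaks it was 0.398, 0.937 and 0.687, below 1 in each.

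Measured by body bases in peaks, the fibrillar genes stood closer to the network and anchoring genes. Peaks covered 2.97, 8.83 and 3.73% of fibrillar bases, against 2.84, 5.60 and 3.26% of network and anchoring bases. The ratio was 1.26 ± 0.283 with COL7A1 and 3.20 ± 0.296 without it (SD, n = 3).

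FACIT collagens comprised 10 genes, 4 with a peak in all 3 replicates (40%) and 6 with none (60%), and each of the 4 also had a shared run. The shares of all protein-coding genes were 29.4, 47.5 and 3.99%. COL16A1, at chr1:31652263-31704017 on the minus strand, had 25, 24 and 31 peaks, a mean of 0.432 ± 0.0613 peaks per kb, the highest after COL7A1 (SD, n = 3). Its peaks were spread along the gene: 3 shared runs of 2.01, 4.16 and 3.30 kb began 10.6, 67.9 and 80.0% of the way along the body, and another peak sat at its start. Its flanks held 0.0653 peaks per kb, and the window 6.61 times that.

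COL9A2 and COL9A3 encode chains of type IX collagen, which coats cartilage fibrils. COL9A2 had 9, 9 and 8 peaks, a mean of 0.323 ± 0.0215 peaks per kb (SD, n = 3), the smallest SD among the 12 leading genes. Its shared run covered the last 22% of the body and reached the 3′ end, and the window held 14.5 times the density of its flanks, the highest such ratio in the family. COL9A3 had 8, 12 and 8 peaks, a mean of 0.267 ± 0.0661 peaks per kb, but its flanks on chromosome 20 were as dense, at 0.247. COL20A1, also on chromosome 20, had 16, 12 and 22 peaks, a mean of 0.323 ± 0.0975 peaks per kb, shared runs of 11.1 and 3.06 kb and flanks of 0.210 peaks per kb. The remaining FACIT genes, COL9A1, COL12A1, COL14A1, COL19A1, COL21A1 and COL22A1, had no peak.

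Beaded-filament collagens comprised 5 genes, 2 of them called in all 3 replicates (40%, beside 29.4% of all protein-coding genes) and none with a shared run. No peak was found in 2 of the 5 (40%), beside 47.5%. COL6A1 and COL6A2 encode the common chains of type VI collagen microfibrils and lie near each other on chromosome 21. COL6A1 had 7, 21 and 10 peaks, a mean of 0.381 ± 0.221 peaks per kb, and COL6A2 had 5, 7 and 7, a mean of 0.142 ± 0.0258 (SD, n = 3). The COL6A1 count in replicate 2 was more than the other 2 replicates together, and its only runs, of 3.12 and 7.61 kb, lay in that replicate. COL6A5 and COL6A6 had no peak.

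Transmembrane collagens comprised 4 genes, 3 of them called in all 3 replicates (75%) and 2 with a shared run, beside 29.4 and 3.99% of all protein-coding genes. COL13A1, a collagen of the neuromuscular synapse, had 27, 58 and 42 peaks, a mean of 0.253 ± 0.0927 peaks per kb, and a shared run of 2.07 kb in mid-gene. COL23A1 had 24, 65 and 29 peaks, a mean of 0.108 ± 0.0617 peaks per kb, over a body of 352.8 kb, and its shared run of 3.65 kb lay 98.6 to 99.6% of the way along. COL17A1, the hemidesmosome collagen that ties epithelial cells to the basement membrane, had 6, 10 and 7 peaks, a mean of 0.119 ± 0.0322 peaks per kb (SD, n = 3). COL17A1 had runs of 4.36 and 3.31 kb in replicates 2 and 3 but none in replicate 1. COL25A1 had no peak.

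The 2 multiplexins of the basement membrane zone both had a peak in all 3 replicates, beside 29.4% of all protein-coding genes, and neither had a shared run. COL18A1, whose C-terminal fragment is endostatin, had 7, 30 and 11 peaks, a mean of 0.135 ± 0.104 peaks per kb (SD, n = 3), with runs in replicate 2 only. COL15A1 had 2, 7 and 2 peaks. Of the 2 genes outside these classes, COL26A1 had 13, 24 and 9 peaks and COL28A1 had none.

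Gene starts were counted separately. A peak lay within 1 kb of the start, or of either end of the body for the 12 members with no strand in the tables, in all 3 replicates in 5 of 42 collagen genes (11.9%), beside 6.67% of all protein-coding genes. Genes with a known strand were called in 3 of 30 collagen genes, against 718 of 15070 other protein-coding genes. Genes without one were called in 2 of 12, against 543 of 3857, so the either-end rule called a larger share in both groups. COL16A1, COL8A2 and COL5A1 were called at their known start, and COL9A3 at its low-coordinate end. COL1A1 had no end with a peak in all 3: replicate 1 had one at the low-coordinate end, replicate 3 at the high-coordinate end and replicate 2 at both. Where the same end had to hold a peak in all 3, a rule added after the values were seen, 4 of 42 collagen genes (9.52%) remained, beside 6.58% of all protein-coding genes. The count of 5 was 8 without replicate 3 and 7 without replicate 1, and it was 1 with peaks of a −log10 q of 5 or more and 14 within 5 kb of the start. The share of all protein-coding genes was not counted under these 4 changes, so the 6.67% does not apply to them.

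A promoter sequence, of 250 bases before to 50 bases after the start, was at hand for 30 of the 42 genes from RefSeq (GRCh38.p14). A peak overlapped these 300 bases in all 3 replicates in 2 of 30 collagen genes (6.67%), COL16A1 and COL5A1, beside 1.77% of 15100 protein-coding genes with a promoter. The sequences of 5 genes are shown to set the promoters with peaks beside others. COL8A2 had a peak there in replicates 2 and 3, COL7A1 in replicate 2 only, and COL11A1 had none; COL8A2, COL7A1 and COL11A1 were chosen after their values were seen. Capitals mark the GC box, GGGCGG or its reverse complement CCGCCC, searched on both strands and counted also where copies overlap.
COL16A1, chr1:31703968-31704267, minus strand: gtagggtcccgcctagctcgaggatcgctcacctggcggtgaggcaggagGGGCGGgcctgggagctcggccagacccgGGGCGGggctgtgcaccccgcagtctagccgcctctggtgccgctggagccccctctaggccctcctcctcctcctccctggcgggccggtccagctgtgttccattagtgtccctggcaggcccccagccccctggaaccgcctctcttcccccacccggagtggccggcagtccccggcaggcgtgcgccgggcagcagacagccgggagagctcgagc
COL5A1, chr9:134641553-134641852, plus strand: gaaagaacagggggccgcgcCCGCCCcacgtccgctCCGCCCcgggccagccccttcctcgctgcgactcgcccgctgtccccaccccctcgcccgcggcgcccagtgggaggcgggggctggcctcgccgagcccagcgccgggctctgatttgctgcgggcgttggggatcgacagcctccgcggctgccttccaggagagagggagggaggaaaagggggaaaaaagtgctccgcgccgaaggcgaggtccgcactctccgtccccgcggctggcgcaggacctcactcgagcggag
COL8A2, chr1:36125173-36125472, minus strand: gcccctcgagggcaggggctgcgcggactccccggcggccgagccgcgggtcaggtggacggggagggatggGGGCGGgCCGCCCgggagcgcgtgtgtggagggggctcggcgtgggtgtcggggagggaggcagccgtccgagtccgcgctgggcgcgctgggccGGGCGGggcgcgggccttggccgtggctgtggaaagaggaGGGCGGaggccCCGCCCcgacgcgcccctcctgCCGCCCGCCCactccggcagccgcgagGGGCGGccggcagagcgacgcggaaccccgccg
COL7A1, chr3:48595280-48595579, minus strand: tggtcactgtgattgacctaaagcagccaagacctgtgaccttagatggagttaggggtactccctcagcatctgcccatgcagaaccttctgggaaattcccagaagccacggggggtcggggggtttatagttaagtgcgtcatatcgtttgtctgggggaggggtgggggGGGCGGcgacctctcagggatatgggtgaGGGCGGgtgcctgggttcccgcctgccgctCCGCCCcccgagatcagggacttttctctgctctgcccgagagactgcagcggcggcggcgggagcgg
COL11A1, chr1:103108473-103108772, minus strand: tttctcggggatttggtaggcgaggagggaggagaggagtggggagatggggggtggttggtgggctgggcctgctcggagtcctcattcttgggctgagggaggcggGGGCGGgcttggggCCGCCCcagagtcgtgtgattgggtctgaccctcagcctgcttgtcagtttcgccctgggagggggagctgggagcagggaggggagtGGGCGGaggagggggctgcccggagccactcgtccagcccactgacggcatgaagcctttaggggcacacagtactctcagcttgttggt

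These promoters held 2, 2, 8, 3 and 3 GC boxes in the order shown, and their G and C bases made up 73.7, 74.0, 82.0, 62.3 and 66.0%. COL11A1, without a peak, had as many boxes as COL7A1 and more than COL16A1 or COL5A1. At least 1 GC box was found in 17 of 30 collagen promoters (56.7%), against 8864 of all 15100 (58.7%). A match of these letters is a description of the window and says nothing of a bound factor.

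Collagen genes with peaks had promoters richer in G and C than those without. The median was 73.3% for the 17 called genes with a promoter and 60.8% for the 10 genes without any peak. Among the other protein-coding genes the medians were 65.3% for called genes and 60% for genes without a peak. The called collagen genes also had shorter bodies, with a median of 51.3 kb, against 160.6 kb in collagen genes without a peak. The part of base composition and of body length in the peak calls was not tested.

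Body length moved with the calls inside the family. Among bodies under 25 kb, 4 of 4 collagen genes had a peak in all 3 replicates, against 31.2% of the other protein-coding genes. From 25 to 50 kb it was 6 of 8 (75.0%), against 28.3%. From 50 to 100 kb and from 100 to 200 kb it was 3 of 6 and 6 of 12 collagen genes, against 26.2 and 28.4% of the others. Above 200 kb it was 3 of 12 (25%), against 27.0%, so the longest collagen genes lay at the level of other long genes.

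Shared runs were also more frequent in the shorter collagen genes. They lay in 7 of the 12 collagen genes with bodies under 50 kb and in 4 of the 30 longer ones. In the class from 25 to 50 kb it was 5 of 8 (62.5%), against 4.07% of the other genes of that length. From 50 to 100 kb it was 1 of 6 (16.7%), against 3.91%, and from 100 to 200 kb 1 of 12 (8.33%), against 4.52%. Above 200 kb it was 2 of 12 (16.7%), against 3.24%, so the run shares did not meet in the longest genes as the peak shares did.

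**Figure D3:**
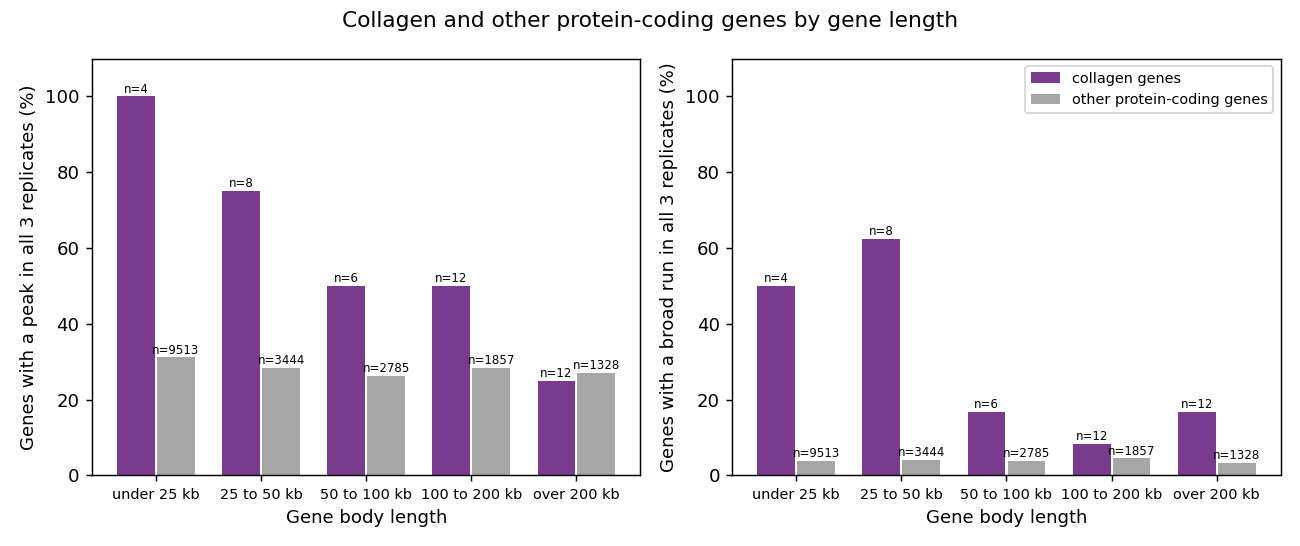
Percent of genes with a peak in all 3 replicates (left) and with a broad run shared by all 3 (right), for collagen genes and other protein-coding genes in 5 classes of gene body length, with the number of genes above each bar. Collagen genes stand above other genes of their length under 50 kb, and above 200 kb the peak shares meet while the run shares do not.

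The surroundings of a collagen gene moved with its calls as well. The median density in the 500 kb on either side was 0.0462 peaks per kb for the 22 called genes and 0.000333 for the 17 without a peak, whose flanks reached 0.0160 at most. Other protein-coding genes differed in the same direction, with medians of 0.064 for called genes and 0.006 for genes without a peak. The 17 were COL1A2, COL3A1, COL4A3, COL5A2, COL6A5, COL6A6, COL8A1, COL9A1, COL10A1, COL11A1, COL12A1, COL14A1, COL19A1, COL21A1, COL22A1, COL25A1 and COL28A1. Collagen genes without a peak therefore lay in regions with few or no peaks around them.

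Within called genes, the window was denser than its own flanks in 18 of 22 collagen genes (81.8%), against 79.4% of called other genes. The median ratio of window to flanks was 3.87 in collagen genes and 2.25 in the others. COL9A2, COL7A1, COL11A2 and COL8A2 had the highest ratios of the family. COL1A1, COL5A1, COL9A3 and COL20A1 lay in dense surroundings, with ratios of 1.36, 1.07, 1.08 and 1.54.

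Chains named for the same collagen type differed. The grouping is by type number and does not say which chains assemble together. In all 7 types with more than 1 autosomal gene, at least 1 chain had a peak in all 3 replicates and at least 1 had none in any. Type I set COL1A1 with peaks beside COL1A2 without, and types VIII and XI did the same with COL8A2 beside COL8A1 and COL11A2 beside COL11A1. In type V, COL5A1 and COL5A3 had peaks and COL5A2 had none, and in type IX COL9A2 and COL9A3 had peaks and COL9A1 had none. COL3A1 and COL5A2 lie next to each other on chromosome 2, and COL9A1 and COL19A1 on chromosome 6, and COL6A5 and COL6A6 on chromosome 3, and each of these neighbours was without a peak. In each of the 7 types, the chain without a peak lay on another chromosome than the chains with peaks.

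**Figure D4:**
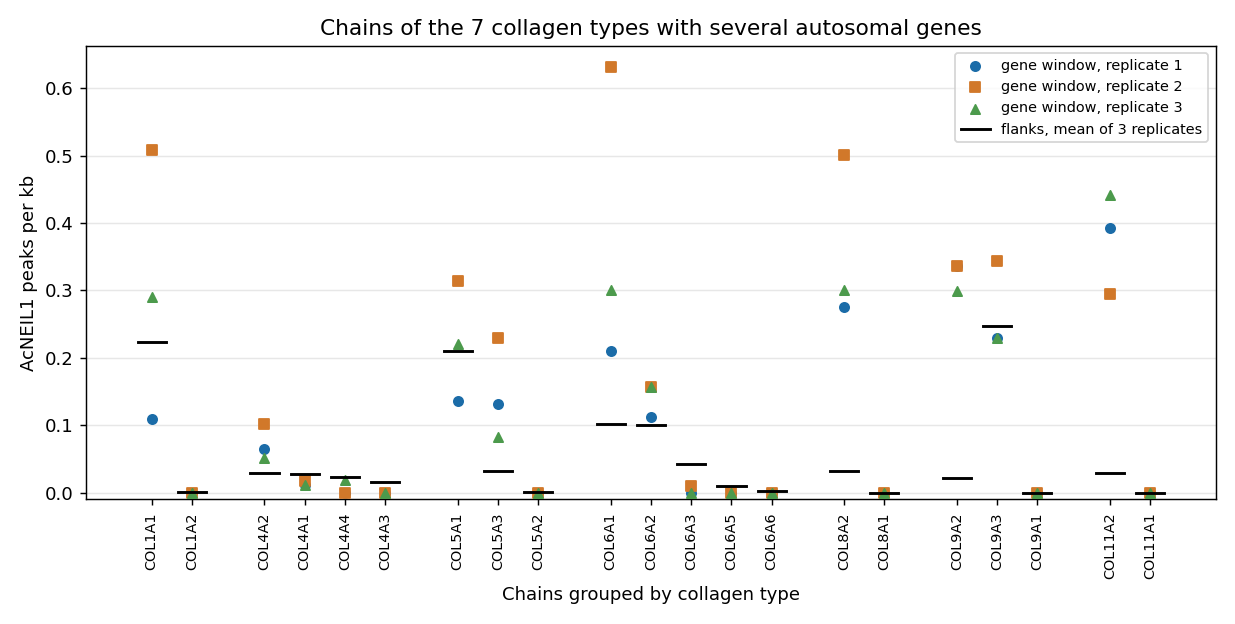
AcNEIL1 peaks per kb in each replicate for the chains of the 7 collagen types with several autosomal genes, with a bar at the mean density of the 500 kb on either side of each window. Each type holds a chain with peaks in every replicate and a chain at 0, and the flanks of the chains at 0 are among the lowest.

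Along the gene body, collagen peaks leaned towards the 3′ end in 2 replicates. Of the peak summits in collagen bodies with a known strand, 28.0, 23.9 and 27.2% lay in the last of 5 equal parts in replicates 1, 2 and 3, against 22.6, 23.7 and 22.6% in other genes. The first of the 5 parts held 17.8, 18.0 and 17.4% of collagen summits, against 21.3, 19.6 and 21.0%. These shares rest on 225, 410 and 276 summits in 16, 19 and 17 collagen genes, and the few genes with many peaks weigh most.

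Genes that make, bind or degrade collagen were counted in the same way. Of 32 genes for collagen biosynthesis and processing, 14 (43.8%) had a peak in all 3 replicates, beside the 29.4% of all protein-coding genes. No peak was found in 11, beside 47.5% of all protein-coding genes, and no gene of the list had a shared run. The highest densities were those of LOXL4, LOXL1 and BMP1. LOXL4, an enzyme of the lysyl oxidase family that crosslinks collagen, had 9 peaks in each replicate. LOXL1, of the same family, had 7, 15 and 8. BMP1, the protease that trims procollagen, had 8, 16 and 14.

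Of 8 collagen receptor genes, 6 (75.0%) had a peak in all 3 replicates, beside 29.4% of all protein-coding genes. No peak was found in 2 of the 8, beside 47.5%. Of the genes of collagen-binding integrins, ITGA10 had 4, 6 and 10 peaks and ITGA11 had 18, 30 and 13. DDR1, a receptor tyrosine kinase for collagen, had 4, 2 and 6. Of 6 collagenase and gelatinase genes, 2 (33.3%) had a peak in all 3 replicates, near the 29.4% of all protein-coding genes. No peak was found in 3 of the 6, beside 47.5%. MMP14, a membrane-bound collagenase, had 11, 11 and 12 peaks, a mean of 0.535 ± 0.0273 peaks per kb (SD, n = 3), above that of COL7A1, and a shared run. The runs of the 3 replicates had only 0.996 kb of the MMP14 body in common, against 23.3 kb in COL7A1. MMP2, a gelatinase, had 1, 3 and 1 peaks.

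Of 15 laminin and other basement membrane genes, 9 (60%) had a peak in all 3 replicates, beside 29.4% of all protein-coding genes. No peak was found in 3 of the 15, beside 47.5%, and 1 had a shared run. The run lay in LAMC3, a laminin chain gene with 20, 34 and 33 peaks, a mean of 0.304 ± 0.0820 peaks per kb (SD, n = 3). LAMA5 had 4, 12 and 10 peaks and LAMB2 had 3, 3 and 2. Shared runs were thus found in 2 of these 61 genes (3.28%), MMP14 and LAMC3, near the 3.99% of all protein-coding genes.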

How the data were processed

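AcNEIL1 and input chromatin of HCT116 cells was sequenced in 3 replicates each, and the authors deposited 1 peak table per ChIP library. Per the file headers, MACS 2.1.1.20160309 called the peaks of each ChIP library against the input of its number, without pooling, with a q-value cutoff of 0.05, at most 2 tags per position and the larger library scaled to the smaller. The deposited signal is the pileup of tags at the summit, and the deposited −log10 values are of the caller's p and q. The deposited fold is the ratio of pileup to local background with 1 added to each; the local background was recovered from both. The submitters' processing notes also name Bowtie2, SAMtools, bedtools, Trim Galore, cutadapt and FastQC. Which step each did, and with what settings, is not given in the sources used here. Builds listed by the submitters are GRCh37, hg19, GRCh38 and hg38; the tables are in hg38, per the file headers.

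Gene bodies and promoters came from RefSeq tables of GRCh38.p14. Each replicate's peaks were intersected with gene windows (body and 5 kb either side, overlap of 1 bp) for all 18969 protein-coding genes on chromosomes 1 to 22, and alternate-locus entries were dropped. Where no strand was given, both gene ends counted as the start. COL4A5 and COL4A6 lie on the X chromosome and were not analysed here. Exons were not used here. Values were computed with Python 3.11.15, numpy 2.4.6 and pandas 2.3.3, and the interval functions were tested on 20 simulated interval sets, all of which passed. Members and lists were chosen with earlier results of these data known. The genes given with values in every replicate are the 12 with the most peaks per kb, those with a shared run, those without a peak, and COL1A1, COL1A2, COL2A1, COL3A1, COL4A1, COL4A2, COL6A1, COL6A2, COL7A1, COL17A1 and COL18A1; of each pathway list, up to 3. COL4A4, COL5A3, COL6A3, COL15A1, COL24A1, COL26A1 and COL27A1 are given outside this rule, after their values were seen. Tags without molecular identifiers are not independent molecules, and no interval was computed. Alternatives changed the q cutoff, the number of peaks, the window, the overlap, the run and start definitions, the replicates used and the treatment of COL7A1.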

Additional observations from a re-analysis of the deposited data

How the results depend on the processing

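Of 54 alternative values, 37 stayed within the limits set for a change, 15 moved and 2 turned round; the cause was not tested except where the setting itself removes peaks or replicates. With a −log10 q of 5 or more, collagen windows held 0.0205 peaks per kb, 3 genes kept a shared run (COL16A1, COL7A1 and COL20A1), 1 had a start peak in all replicates, and the ratio of fibrillar to network and anchoring genes was 0.960. With the 5000 strongest peaks of each replicate, the density was 0.00627, 8 genes had a peak and 2 a run (COL7A1 and COL20A1) in all 3, 0 had a start peak, peaks covered 1.27% of body bases, and the ratio was 0.674. With equal lists of the 39655 strongest peaks all 6 values stayed within those limits. Leaving out 1 replicate at a time gave 0.0481 to 0.0644 peaks per kb, 22 to 22 genes with a peak, 11 to 12 with a run, 5 to 8 with a start peak (8 without replicate 3), a ratio of 1.29 to 1.72 and 2.80 to 4.71% of body bases. Runs joined over 500 bp left 5 genes, and runs of 5 kb or more also 5. A start peak in at least 2 replicates gave 10 genes, a start window of 5 kb gave 14, and the same end in all replicates, added after the data were seen, gave 4. Apart from the same-end rule, the share of all protein-coding genes was not counted at these settings. Whether these gene counts lie above that share is therefore not known. The ratio was 16.4 ± 10.4 as a quotient of gene medians and 2.47 ± 0.253 without COL7A1 (SD, n = 3 each). The quotient of medians is unstable, as its divisor was small. Of the 8 network and anchoring genes 3 had no peak, and the median of their mean densities was 0.0102 peaks per kb. No paired analysis was possible because the inputs have no values of their own here and no groups were tested against each other. A gene without a peak had none detectable at this depth.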
